A study of Homo sapiens with 4 samples.

Results

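The genes described here are 9 immediate early genes, named by symbol: EGR1, EGR2, EGR3, EGR4, IER2, IER3, IER5, SRF and ZFP36. All 9 were among the 60048 genes of the deposited table, and all 9 passed the filter on low values, which left 39464 genes tested. The data were EU-seq libraries, in which RNA made while cells take up 5-ethynyl uridine (EU) is captured and sequenced, so that the signal of a gene reflects transcription during the labelling. The cells were HCT116, a human colorectal carcinoma line, of the genotype RAD21-mAC, in which the cohesin subunit RAD21 carries an auxin-inducible degron. The control group held 2 libraries from cells given DMSO, and the auxin group held 2 libraries from cells treated for 3 h with the auxin indole-3-acetic acid at 0.5 mM, by which RAD21 is depleted. Both groups carried the tagged RAD21 and took up EU at 0.5 mM for 20 min. The labels do not say whether the replicates came from separate cultures, so the spread between them may be technical, and loss of the RAD21 protein was not measured in these libraries. The series title asks how cohesin bears on pausing and elongation of RNA polymerase. Immediate early genes are of interest there because they are short and are held ready for rapid transcription.

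Immediate early genes are transcribed within minutes of a growth factor, serum or stress signal, without new protein synthesis. Serum response factor, the product of SRF, binds a short A- and T-rich element called the CArG box in many of their promoters. There it acts with ternary complex factors such as ELK1, which the ERK kinases phosphorylate, or with MRTF coactivators, which respond to actin. EGR1 to EGR4 encode zinc finger transcription factors that bind GC-rich DNA, IER2, IER3 and IER5 encode small induced nuclear proteins or stress regulators, and ZFP36 encodes tristetraprolin, which binds AU-rich elements and speeds the decay of mRNAs, including those of other early genes.

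The promoters are shown first because the CArG box is the element by which SRF acts on such genes. RefSeq (GRCh38.p14) windows were used for 7 of the 9 genes, with 3 start sites for EGR2 and 2 for SRF. The 250 bases before each start site were searched. No window was used for EGR3 or IER3, so their promoters were not searched. A CArG box lay in 3 of the 7 genes searched, EGR1, EGR2 and SRF, and in 3 of the 10 windows searched. EGR1 and SRF each held a pair of boxes, which was found in 11 of the 35116 RefSeq windows, or 0.0313%, and at least 1 box was found in 407 windows, or 1.16%. The 150 bases before the start site are printed for these genes and for ZFP36, which held no match, with CArG boxes and the CRE core TGACG (on either strand) in capitals. The intervals are chr5:138465329-138465478 (plus strand) for EGR1, chr10:62816367-62816516 (minus strand) for EGR2, chr6:43171119-43171268 (plus strand) for SRF and chr19:39406697-39406846 (plus strand) for ZFP36.
EGR1: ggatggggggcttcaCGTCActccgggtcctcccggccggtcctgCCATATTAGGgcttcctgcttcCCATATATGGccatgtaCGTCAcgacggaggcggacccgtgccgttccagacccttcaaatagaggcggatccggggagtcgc
EGR2: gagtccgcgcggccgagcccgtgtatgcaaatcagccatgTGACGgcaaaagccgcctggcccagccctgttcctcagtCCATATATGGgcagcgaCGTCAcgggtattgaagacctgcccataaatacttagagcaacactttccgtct
SRF: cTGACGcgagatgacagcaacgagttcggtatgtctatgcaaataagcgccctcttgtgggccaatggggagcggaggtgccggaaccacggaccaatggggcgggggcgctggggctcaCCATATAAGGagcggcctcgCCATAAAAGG
ZFP36: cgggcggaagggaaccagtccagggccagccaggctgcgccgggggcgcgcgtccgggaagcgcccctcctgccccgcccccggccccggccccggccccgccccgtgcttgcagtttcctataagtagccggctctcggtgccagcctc

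Counting back from the base before the start site as -1, the CArG boxes of EGR1 began at -105 and -83, and its CRE cores, the element bound by CREB, at -135 and -66. In EGR2 the box lay at -71 and CRE cores at -110 and -54. In SRF the boxes lay at -30 and -10, so that the nearer box ended at the base before the start. CRE cores occurred in 5 of the 7 genes searched, EGR1, EGR2, EGR4, IER2 and SRF. By window they occurred in 5 of the 10 searched, and in 21.2% of all windows. The ETS core CCGGAA, which ternary complex factors can bind, was present in IER2, IER5 and SRF. By window it was in 3 of the 10 searched and in 14.5% of all windows. Only this form of the core was searched, so genes without it may hold others. The EGR site GCGNGGGCG was present in EGR1 and SRF, in 2 of the 10 windows searched and in 8.41% of all windows. The GC box GGGCGG was present in EGR2, IER2, SRF and ZFP36, in 5 of the 10 windows searched and in 42.6% of all windows. All motifs were searched on both strands and matches may overlap, as the EGR site of SRF does with its GC box. A match is a run of letters and not a measured binding site.

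**Figure D1:**
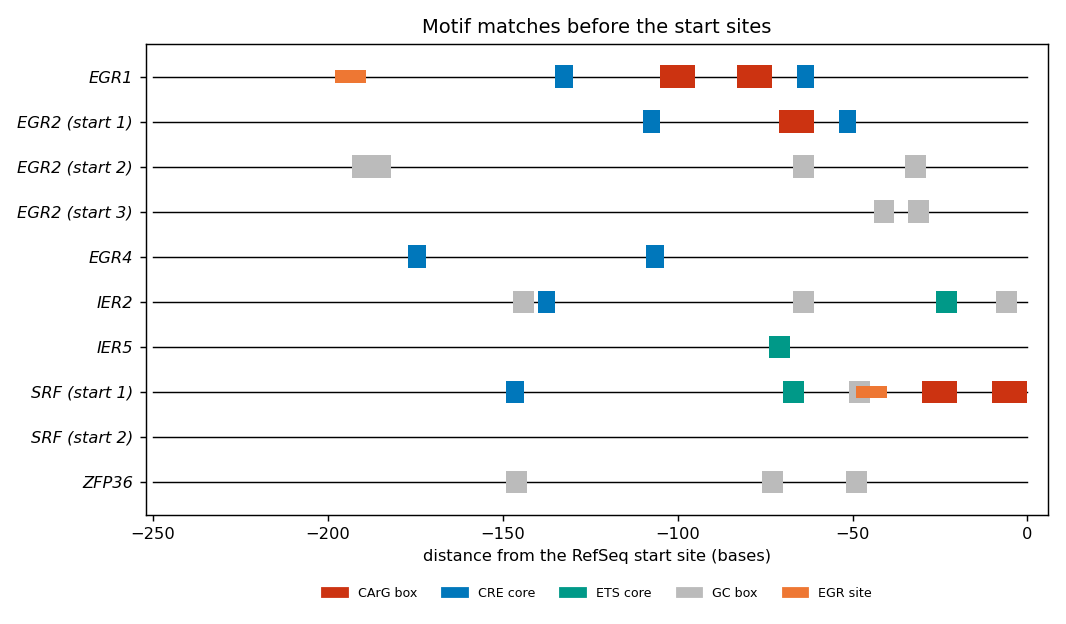
Positions of motif matches in the 250 bases before each RefSeq start site of the 7 genes searched, given in bases from that site. Coloured blocks are CArG boxes, CRE cores, ETS cores, GC boxes and EGR sites. CArG boxes appear in EGR1 and SRF as a pair and singly at 1 of the 3 start sites of EGR2.

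The values are a scaled signal per gene over its genomic span, and the number of reads behind them is unknown. Totals on the deposited scale ranged from 61135244 to 93113007 among the 4 libraries, both from the auxin group, and each library was divided by its trimmed-mean factor, between 0.816 and 1.21, before the values below were taken. Per the labels, 20 µg of EU-labelled RNA from fly S2 cells was mixed with 200 µg of human RNA in each library; whether the deposited scale used it is not stated, and the trimmed-mean factors remove any shift shared by all genes. Of 8 epithelial markers, 7 had a control signal per kb above the median of tested protein-coding genes, and the exception was CDX1. Fibroblast, leukocyte and endothelial markers, 11 genes in all, were below that median. In bulk libraries such as these, fewer cells with a transcript and less of it per cell cannot be told apart.

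No gene of the group was called at an adjusted p under 0.05 in limma's test over all 39464 genes, where 0.332% of genes were called higher and 0.400% lower. This fit held no replicate term, and the calls differed with one, as given in the last section. At an unadjusted p under 0.05, EGR1, EGR3 and ZFP36 were higher, 3 of 9 genes, against 4.75% of all genes, and no gene was lower, against 5.47%. The log2 fold change of auxin over control was above 0 in 7 genes and below 0 in 2, EGR2 and IER5. The median over the 9 genes was 0.19, with a range from -0.23 to 0.79, against a median of 0.0089 over all tested genes and -0.024 over 3499 protein-coding genes with a span of at most 11 kb and a mean signal of at least 50. Both auxin libraries lay above both control libraries in EGR1, EGR3, IER2 and ZFP36, 4 of 9 genes, against 18.6% of all tested genes and 16.7% of the short protein-coding genes. In no gene did both lie below, against 19.6%. On the deposited scale, without further scaling, both auxin libraries lay above both control libraries in EGR3 alone, 1 of 9 genes, against 8.51% of all genes.

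**Figure D2:**
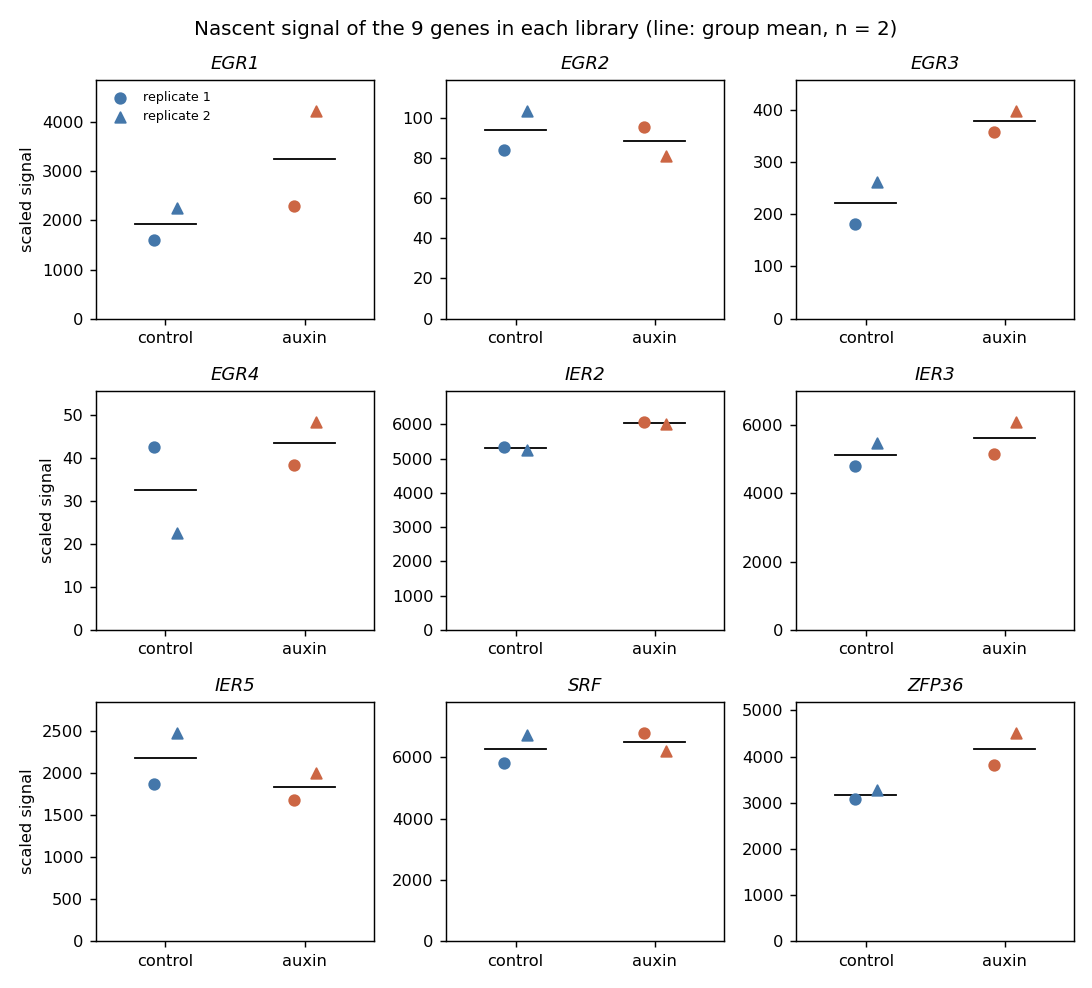
Scaled signal (linear axis from 0) of each of the 9 genes in the 2 control libraries (blue) and the 2 auxin libraries (orange); circles are replicate 1, triangles replicate 2 and lines group means. EGR3, ZFP36 and IER2 show separated groups, while in EGR1 auxin replicate 1, at 2291, lies beside control replicate 2, at 2265.

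EGR1 is the most studied member of the family and a common readout of ERK signalling. EGR1 (ENSG00000120738, plus strand, chromosome 5, 138465479 to 138469303, hg38) had a scaled signal of 1607 and 2265 in control replicates 1 and 2, and of 2291 and 4234 in auxin replicates 1 and 2. Auxin replicate 2 stood above the other 3 libraries, and auxin replicate 1 was only just above the higher control. The libraries averaged 3262 ± 1374 with auxin, against 1936 ± 465 without it (SD, n = 2 each), and the corresponding log2 fold change was 0.71 (SE 0.27, 95% interval 0.11 to 1.30, not adjusted for the number of genes; limma unadjusted p = 0.0243, adjusted p = 0.363). The estimate depended on auxin replicate 2: without it the log2 fold change was 0.26, and without auxin replicate 1 it was 1.16, where the gene was called (limma adjusted p = 5.90e-04, among 0.927% of genes called higher in that fit). That fit rests on the lone library at 4234, assumes that it varies like the controls, and gives each gene the spread of the trend common to all genes. Leaving out control replicate 1 gave 0.47 and leaving out control replicate 2 gave 0.95, neither of them called.

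EGR3 encodes a factor with the same type of DNA-binding domain and is itself induced by growth factors. EGR3 (ENSG00000179388, minus strand, chromosome 8, 22687659 to 22693480) had a scaled signal of 181 and 262 in control and of 357 and 398 in auxin. The groups did not overlap, and the auxin libraries lay closer to each other than the control libraries did. Its log2 fold change was the highest of the group at 0.79 (SE 0.24, 95% interval 0.25 to 1.33; limma unadjusted p = 0.00878, adjusted p = 0.234), and it ranged from 0.53 without control replicate 1 to 1.06 without control replicate 2, uncalled in each such fit. The span of EGR3 overlaps the lncRNA gene AC055854.1 on the other strand by 3331 bases. That gene had a scaled signal of 271 and 344 in control and of 355 and 398 in auxin, so its auxin values nearly equal those of EGR3, while its control values were higher. How the counting treated strand is not stated, and how far overlapping genes share signal was not tested. For AC055854.1 the log2 fold change was 0.30 with an SE of 0.22 (limma adjusted p = 0.769).

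EGR4 and EGR2 had the lowest scaled signal of the 9 genes. EGR4 (ENSG00000135625, minus strand, chromosome 2, 73290930 to 73293701) had a scaled signal of 42.4 and 22.5 in control and of 38.3 and 48.3 in auxin. The groups overlapped, and the log2 fold change of 0.46 had a wide error (SE 0.43, 95% interval -0.49 to 1.41, limma adjusted p = 0.847). Left-out libraries moved it from 0.021 (without control replicate 2) to 0.91 (without control replicate 1). EGR2 (ENSG00000122877, minus strand, chromosome 10, 62814433 to 62919900), a regulator of myelination and of the hindbrain, had a scaled signal of 83.9 and 103 in control and of 95.4 and 80.8 in auxin. Its groups overlapped too, with a log2 fold change of -0.084 (SE 0.29, 95% interval -0.73 to 0.56, limma adjusted p = 0.982). The table gives EGR2 a span of 105468 bases, whereas the RefSeq gene spans 7172 bases (62811996 to 62819167). The span in the table leaves out the RefSeq bases below 62814433, the 3' end of the gene. Most of it lies beyond 62819167, outside the RefSeq gene. How much of the signal came from EGR2 itself was not tested.

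SRF itself is also an immediate early gene, and its protein binds the CArG boxes printed above. SRF (ENSG00000112658, plus strand, chromosome 6, 43171269 to 43181506) had a scaled signal of 5812 and 6738 in control and of 6791 and 6199.8 in auxin. One auxin library lay within the control range and the other just above it. The log2 fold change was 0.052 (SE 0.14, 95% interval -0.25 to 0.35, limma adjusted p = 0.972), and the interval runs from a 0.841-fold to a 1.28-fold level with auxin. Its sign changed without control replicate 1 (-0.045) and without auxin replicate 1 (-0.0058), and leaving out control replicate 2 gave 0.16 and leaving out auxin replicate 2 gave 0.12.

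Of the IER genes, IER2 had the smallest spread between replicates. IER2 (ENSG00000160888, plus strand, chromosome 19, 13150411 to 13154911), which encodes a nuclear protein induced by growth factors, had a scaled signal of 5352 and 5268 in control and of 6072 and 6020.1 in auxin. The groups did not overlap, but the difference was small, with a log2 fold change of 0.19 (SE 0.13, 95% interval -0.095 to 0.47, limma adjusted p = 0.733). Without one library at a time it stayed between 0.18 and 0.21. The lncRNA genes AC011446.2 and AC011446.3 lie wholly inside its span on the other strand, and AC011446.2 had an auxin mean of 2954 ± 29.8 and a control mean of 2608 ± 133 (SD, n = 2 each), with a log2 fold change of 0.18 and an adjusted p of 0.802 in limma's test.

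IER3 (ENSG00000137331, minus strand, chromosome 6, 30743199 to 30744547), known for its part in the control of apoptosis and of ERK and NF-kB signalling, had a scaled signal of 4804 and 5479 in control and of 5167 and 6096 in auxin. Replicate 2 was higher than replicate 1 in each group, and the groups overlapped (log2 fold change 0.13, SE 0.14, 95% interval -0.19 to 0.45, limma adjusted p = 0.887; 0.0093 without auxin replicate 2). Its span overlaps IER3-AS1 by 394 bases and HCG20 by 758 bases, both lncRNA genes on the other strand. HCG20 had a scaled signal of 4231 and 5563 in control and of 5417 and 7791 in auxin, and its log2 fold change was 0.42 with an SE of 0.19 (limma adjusted p = 0.499), and that of IER3-AS1 was 0.12 (limma adjusted p = 0.918).

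IER5 (ENSG00000162783, plus strand, chromosome 1, 181088700 to 181092900), a regulator linked to heat shock factor and the stress response, had a scaled signal of 1874 and 2477 in control and of 1676 and 1999.95 in auxin. Auxin replicate 2 lay within the control range. Its log2 fold change was the lowest of the group at -0.23 (SE 0.18, 95% interval -0.64 to 0.17, limma adjusted p = 0.794), and was -0.43 without control replicate 1, -0.034 without control replicate 2, -0.36 without auxin replicate 2 and -0.10 without auxin replicate 1.

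ZFP36 (ENSG00000128016, plus strand, chromosome 19, 39406847 to 39409412) had a scaled signal of 3089 and 3264 in control and of 3809 and 4507.5 in auxin. Both auxin libraries lay above both controls, and the control libraries differed little from each other. The libraries averaged 4158 ± 494 with auxin, against 3176 ± 123 without it (SD, n = 2 each), which gave a log2 fold change of 0.38 (SE 0.15, 95% interval 0.055 to 0.71; limma unadjusted p = 0.0263, adjusted p = 0.376). It ranged from 0.26 without auxin replicate 2 to 0.51 without auxin replicate 1 and was not called in any of these fits.

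**Figure D3:**
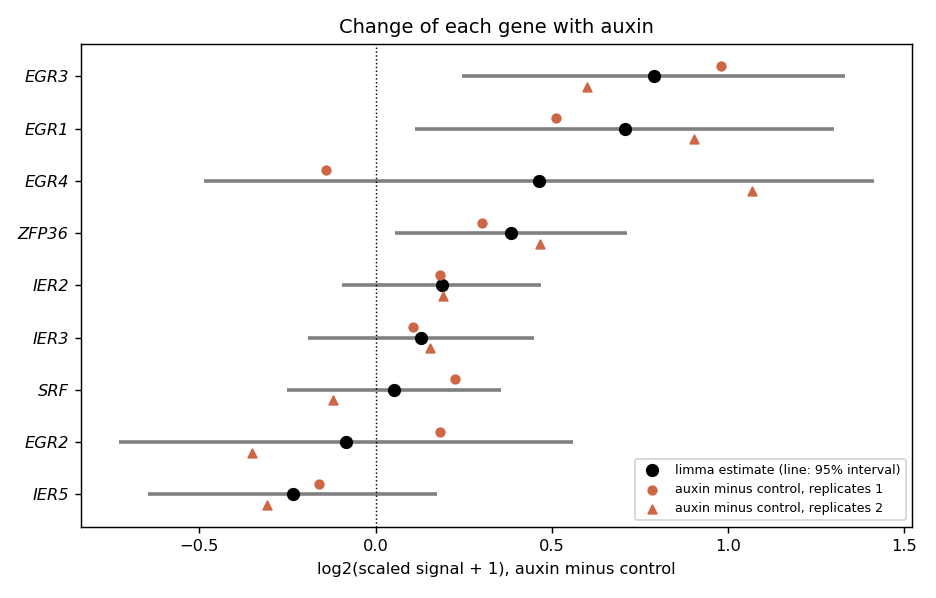
Log2(scaled signal + 1) of auxin minus control for each gene; black points are limma estimates with 95% intervals, and orange symbols the difference within replicates 1 (circles) and replicates 2 (triangles). EGR3, EGR1 and ZFP36 have intervals above 0 before adjustment, and none of the 9 passed after it.

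Taken within replicate numbers, the difference was above 0 for both numbers in 5 genes, EGR1, EGR3, IER2, IER3 and ZFP36, and below 0 for both in IER5. The share of all tested genes that did so was not taken, so this count cannot be read as a trait of the group. EGR1 differed by 0.51 between the libraries numbered 1 and by 0.90 between those numbered 2, and EGR3 by 0.98 and 0.60. EGR2, EGR4 and SRF changed sign between the numbers. Differences between replicates of 1 group were of similar size to several of these changes. Replicate 2 exceeded replicate 1 in 7 of 9 genes in control, with a median log2 difference of 0.21, and in 6 of 9 in auxin, with a median of 0.24. Over all tested genes with a mean of at least 50 these medians were -0.0036 and 0.0076, with SDs of 0.41 and 0.35. The widest replicate differences were -0.88 for EGR4 in control and 0.89 for EGR1 in auxin.

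**Figure D4:**
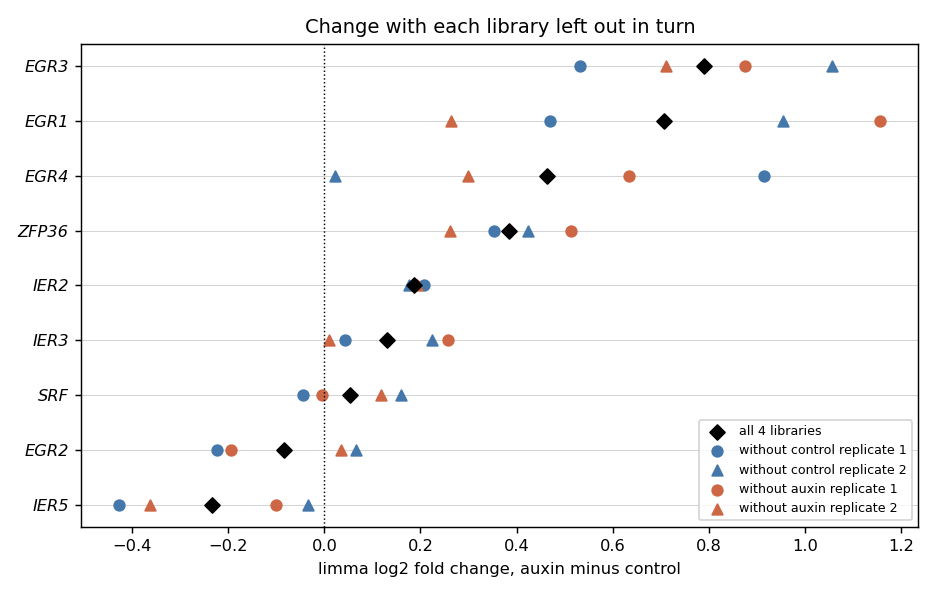
Limma log2 fold change of auxin over control for each gene with all 4 libraries (black diamonds) and with each library left out in turn (blue for control, orange for auxin; circles for replicate 1, triangles for replicate 2). EGR1 moves from 0.26 to 1.16, whereas IER2 stays between 0.18 and 0.21.

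Levels were compared between genes as scaled signal per kb of the span in the table. In control, IER3 was highest at 3812 per kb, followed by ZFP36 at 1238, IER2 at 1179.8, SRF at 613, IER5 at 518, EGR1 at 506, EGR3 at 38.0, EGR4 at 11.7 and EGR2 at 0.888. The spans of IER3, IER2 and EGR3 overlap lncRNA genes on the other strand, and the share of those genes in these levels was not tested. The place of EGR2 rests on its long span in the table. With all of its signal placed in the RefSeq span it would stand at 13.1 per kb. That lies within the control range of EGR4, 8.12 to 15.3 per kb, so the order of these genes is not settled. The figure is hypothetical, because the span in the table covers only part of the RefSeq gene and lies mostly outside it. The control ranges of SRF and IER5 overlapped, as did those of IER5 and EGR1, so these neighbours in the order did not differ beyond their spread. Among 17767 tested protein-coding genes, whose median was 62.9 per kb, the 6 genes from IER3 to EGR1 lay at or above percentile 93.8. EGR3, EGR4 and EGR2 lay at percentiles 40.7, 26.8 and 7.15. By scaled signal not divided by span, the same 6 genes lay lower, from percentile 51.4 for EGR1 to 80.6 for SRF. In auxin EGR1 stood at 853 per kb, above SRF at 634 and IER5 at 438, but its auxin libraries lay at 599 and 1107 per kb, and the former was below the 606 and 663 of SRF.

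The nearest tested gene on each side of each of the 9 genes, 18 neighbours in all, gave no call in limma's test. Of all tested genes, 0.332% were called higher and 0.400% lower, so a lack of calls says little about so few neighbours. Their log2 fold changes ranged from -0.69 to 0.43 with a median of -0.045, against 0.0089 over all tested genes, and 8 were above 0. The genes whose centred log2 values over the 4 libraries lay nearest to the median pattern of the 9 genes were AC011509.2, CPT2 and LRCH3, at Euclidean distances of 0.014, 0.018 and 0.020 among 29145 genes compared. With 4 libraries such a likeness is common, and 372 genes lay within 0.1, but none of the 9 genes themselves did.

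Other early genes and the pathways that act on SRF were read from the same fit. Of 40 other immediate early genes, all tested, 2 were higher and none lower at an adjusted p under 0.05. Of all tested genes, 0.332% were higher and 0.400% lower. At an unadjusted p under 0.05, 11 of the list were higher and 7 lower, against 4.75% and 5.47% of all tested genes. The median log2 fold change of the list was 0.15. NR4A2, an orphan nuclear receptor, had an auxin mean of 7388 ± 663 and a control mean of 2457 ± 24.1 (SD, n = 2 each), and its log2 fold change was 1.59 (limma adjusted p = 0.00126). CCN2, a matricellular protein and a target of SRF and YAP, rose with a log2 fold change of 1.20 (limma adjusted p = 0.0347), and without control replicate 1 the value was 0.92 and no longer called (limma adjusted p = 0.069). The uncalled genes of this list lay on both sides of 0, from KLF4 at -0.99 to ATF3 at 1.02, a pair chosen for naming once the values were known.

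Of 18 genes of the ERK and ternary complex factor pathway, none was called, and the median was 0.029. At an unadjusted p under 0.05, 1 was higher and 2 were lower, against 4.75% and 5.47% of all tested genes. The smallest p belonged to MAP2K1, which encodes the ERK kinase MEK1 (log2 fold change -0.48, limma adjusted p = 0.102), and RPS6KA5, which encodes the nuclear kinase MSK1 (-1.21, limma adjusted p = 0.155). Of 17 cytoskeletal targets of SRF, 16 were tested and none was called, and the median was 0.10. Beside the same shares of all genes, 1 was higher and none lower at an unadjusted p under 0.05. TPM4, a tropomyosin, had a log2 fold change of 0.36 (limma adjusted p = 0.197) and FHL2 of 0.40 (limma adjusted p = 0.544), while ACTB was at 0.13 and VCL at -0.14.

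Among 9 paralogues and cofactors of the group, 1 was called lower and none higher, and the median was -0.18. At an unadjusted p under 0.05, 3 were lower and 1 was higher, against 5.47% and 4.75% of all tested genes. IER5L, the paralogue of IER5, had a scaled signal of 2573 and 1999.7 in control and of 1034 and 623 in auxin. Both auxin libraries were far below both controls, and the log2 fold change was -1.50 with an SE of 0.24 (limma adjusted p = 0.0240), against -0.23 for IER5. Without control replicate 1 the value for IER5L was -1.31 and not called (limma adjusted p = 0.0656). The difference between the paralogues was not tested. The ZFP36 paralogues ZFP36L1 and ZFP36L2 had log2 fold changes of -0.18 and -0.51, and NAB1 and NAB2, corepressors that bind EGR proteins, of -0.57 and 0.10, all uncalled. Over all 83 tested genes of these lists, 2 were called higher and 1 lower, against 0.332% and 0.400% of all tested genes. Without control replicate 1 the log2 fold changes of CCN2 and IER5L were 0.92 and -1.31, both smaller in size than with all libraries. On the deposited scale none of the 83 was called, with NR4A2 at 1.57 (limma adjusted p = 0.0677).

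**Figure D5:**
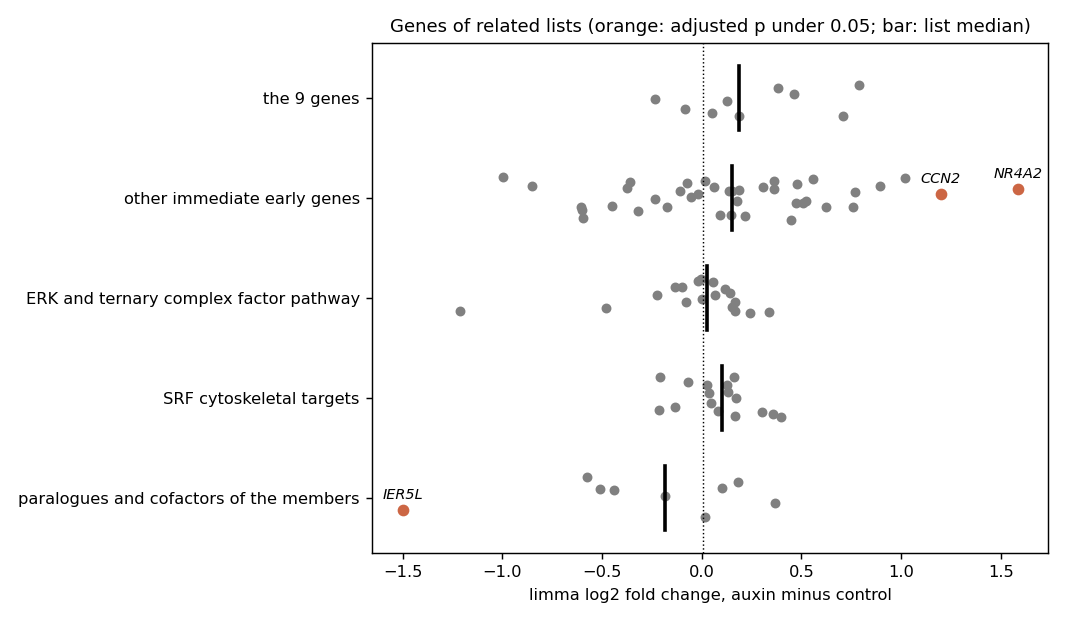
Limma log2 fold change of auxin over control for the tested genes of each list (points, spread vertically for legibility), with the list median as a bar and the median of all tested genes as a dotted line; orange points have an adjusted p under 0.05. None of the 9 genes is past the threshold, and NR4A2, CCN2 and IER5L are.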

How the data were processed

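The 9 genes, the other gene lists and the settings were chosen with earlier results of these data known. Trimmomatic 0.39, Bowtie2 2.4.5, deepTools 3.5.1 and the builds hg38 and dm6 are named, without their roles, in the submitters' processing notes; the counter, annotation and scaling are not given in the sources used here. The authors deposited 1 table with a scaled signal per gene and library. In it, 99.9% to 100% of each library's values under 20 steps were whole multiples of 1 step (within 0.011). Steps were not taken as reads, because 1 step was rare in genes over 10 kb (2 to 8 genes per library). A value of 2 steps was more common there (141 to 221 genes per library), and what a step stands for was not tested. The misspelt second control column was read as control replicate 2. Starts count from 0 in the table and are printed 1 higher.

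A gene was tested if 2 or more libraries reached the equivalent of 10 and the sum over libraries reached 15. Scaling used the trimmed mean of M-values, and log2(value + 1) was fitted with limma 3.58.1 (lmFit, eBayes with trend) in R 4.3.3, auxin against control, with Benjamini-Hochberg adjustment over all tested genes at 0.05. Fold changes on this scale understate those of low genes. The design allows no exact permutation p under 0.333. The procedure was tested on simulated data. Named genes were the 9 genes, the called genes of each other list or else the pair with the smallest p, overlapping genes and the 3 nearest in pattern; KLF4, ATF3, ACTB, VCL, ZFP36L1, ZFP36L2, NAB1, NAB2 and CDX1 were added once values were known. One of the gene lists is not reported here. Tables were made with Python 3.11.15.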

Additional observations from a re-analysis of the deposited data

How the results depend on the processing

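With all libraries and no replicate term, no gene of the 9 was called under median-ratio scaling, scaling by library total, the deposited scale, no filter, a mean of at least 50 (which leaves out EGR4) or pseudocounts of 0.1 and 10. No label ties replicate numbers to a common day or batch, and 2 pairs cannot settle it; among genes whose mean reached 50, the replicate differences of control and auxin correlated with a Pearson's r of 0.462. With the replicate block, 3 of the 9 genes were called, EGR1, EGR3 and ZFP36, all higher, and 34 of the other listed genes (19 higher, 15 lower), while 1944 of all 39464 genes were called higher and 2329 lower. In that fit, on the deposited scale and without either auxin library, every gene took the spread of the common trend (prior degrees of freedom infinite). Leaving out 1 library gave 0 to 1 called genes among the 9 and 3 to 13 among the others; on the deposited scale 0 of the others were called, against 3, and the cause was not tested. Over all tested genes the number of calls also differed between the leave-one-out fits. The counts of called listed genes therefore cannot be read as a trait of the lists. On the deposited scale 28 of all genes were called higher and 27 lower, against 131 and 158 in the main fit. Signs turned only in leave-one-out fits, for EGR2 (-0.22 to 0.065, with 0.034 without auxin replicate 2) and SRF (-0.045 to 0.16, with -0.0058 without auxin replicate 1). With 2 libraries a group and unknown read depth, precision rests on the spread between libraries.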
